A study of Saccharomyces cerevisiae with 12 samples.

Results

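The 8 genes described here are 7 a-specific genes of budding yeast, MFA1, MFA2, STE2, STE6, BAR1, AGA2 and ASG7, together with RDT1, a short gene on chromosome III. They are 8 of the 7123 genes in the count table, and all 8 had enough reads to be among the 6490 genes tested. They were chosen by their counts in G2/M arrest, which were far smaller in rad30Δ libraries than in WT libraries, so that contrast is given as a description without a test. The α-specific gene AFB1 was kept out because it moved in the opposite direction.

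The libraries, 12 in number, came from *Saccharomyces cerevisiae* strains derived from W303 and formed 4 groups of 3. WT cells and cells without RAD30, the gene of the translesion polymerase Polη (rad30Δ), grew in 2% raffinose and were held in G2/M by 80 µg/ml benomyl for 3 hours. In the other group of each strain, 2% galactose was then added for 1 hour to switch on the HO endonuclease, which cuts the MAT locus on chromosome III. The study's strains for HO induction carry HO under the GAL promoter, and many of them also carry the smc1-259 allele with a galactose-driven SMC1-MYC. Its strain list holds MATa and MATα strains of each genotype, but the sources used here do not say which of them were sequenced. Loss of RAD30 and any other difference between the strains, mating type included, therefore cannot be told apart, and no group had galactose without HO.

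The deposited counts summed to 5442935 to 7289514 reads per library. RAD30 had 0 reads in the 6 rad30Δ libraries and 46.6 ± 6.01 CPM in arrested WT cells (CPM, counts scaled to library size with TMM factors; SD, n = 3). HO rose after induction in both strains (log2 fold change 6.82 for WT, adjusted p = 1.11e-12, and 6.78 for rad30Δ, adjusted p = 1.2e-12, edgeR's quasi-likelihood test). The induced rad30Δ replicate 3 was unlike the other libraries: its TMM factor was 0.873, and mitochondrial genes took 0.205% of its counts. Separate cultures are not named for the triplicates, so p-values reflect the spread among these libraries, which may be technical.

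Haploid yeast cells are of mating type a or α, and each type expresses its own pheromone, the receptor for the pheromone of the other type, and matching adhesion proteins. The a-specific genes are switched on by the general factor Mcm1. In α cells the repressor α2 binds beside Mcm1 at the same sites and recruits the corepressor Tup1-Cyc8, which shuts the genes off. RDT1 lies in the recombination enhancer, a region of chromosome III known for directing the choice of donor locus in mating type switching of a cells.

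The upstream sites of 7 genes are shown first because the known a-specific operator joins a Mcm1 box to sites of α2. They are given 5′ to 3′ on the strand of the gene, in coordinates of the R64 assembly (sacCer3). In the first 6, capitals mark matches to a joined site of 18 bases, which is TGT, any 3 bases, T and any base, followed by a Mcm1 box of CC, any 6 bases and GG. Either strand could match. In ASG7 no such site was found, and capitals mark CATGTAA, the α2 element, on the other strand.
MFA1 (chrIV:1384931-1384974, forward strand): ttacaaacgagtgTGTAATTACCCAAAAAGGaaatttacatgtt
MFA2 (chrXIV:352152-352195, forward strand): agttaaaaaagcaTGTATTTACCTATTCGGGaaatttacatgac
STE2 (chrVI:82349-82392, forward strand): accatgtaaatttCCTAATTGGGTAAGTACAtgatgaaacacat
STE6 (chrXI:46475-46518, reverse strand): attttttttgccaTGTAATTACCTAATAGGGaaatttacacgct
BAR1 (chrIX:322071-322114, forward strand): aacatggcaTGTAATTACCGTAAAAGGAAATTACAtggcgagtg
AGA2 (chrVII:437095-437133, reverse strand): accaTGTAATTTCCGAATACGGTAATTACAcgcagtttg
ASG7 (chrX:101887-101929, reverse strand): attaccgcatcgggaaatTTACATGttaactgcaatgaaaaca

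The joined site lay between 193 and 296 bases before the coding start of MFA1, MFA2, STE2, STE6, BAR1 and AGA2. In the 300 bases before the start, 36 of 6001 protein-coding genes (0.6%) held it, 6 of the 8 genes among them. In a stricter form, which opens with TGT, any base, ATT and any base, it was found before 8 genes (0.133%), which included MFA1, STE6, BAR1 and AGA2. In BAR1 and AGA2 the matches on both strands overlapped and shared 1 Mcm1 box. The α2 element CATGTAA was present before 7 of the 8 genes and before 3.92% of all genes, and the Mcm1 box alone before the same 7 and before 28.7% of all genes. TGAAACA, the pheromone response element bound by Ste12, was present before MFA2, STE2, STE6, BAR1 and AGA2 and before 7.2% of all genes. RDT1 had a match to none of these motifs in its window. In the 2512 bases between its neighbouring genes (chrIII:28937-31448), 1 α2 element was found, 1694 bases before RDT1. These matches are descriptions of sequence and not measured binding sites.

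**Figure D1:**
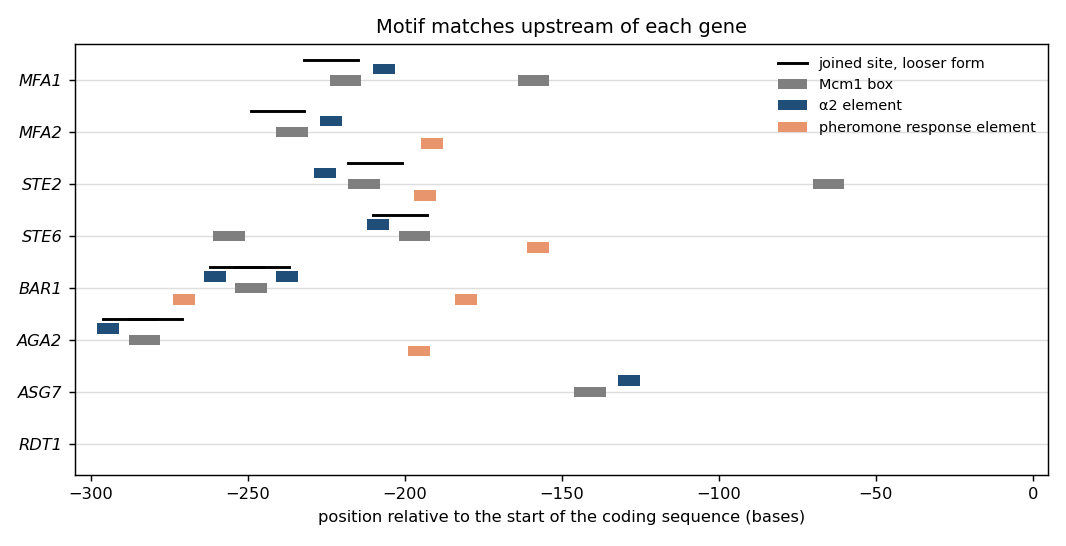
Matches to motifs in the 300 bases before the coding start of the 8 genes, with the position in bases relative to that start on the x axis. Blue bars are α2 elements, grey bars Mcm1 boxes, orange bars pheromone response elements and black lines joined sites on either strand. In 6 genes a joined site lies between 193 and 296 bases before the start, ASG7 has a box and an α2 element nearer to the start, and RDT1 has no match.

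Of 30 other tested genes with the joined site, the comparison of the strains after DSB induction called 9 lower (30%) and 4 higher (13.3%) in rad30Δ cells, against 11.8% and 11.6% of all genes. The median log2 fold change of the 30 genes was −0.07. The other 4 genes with the stricter form, PEP7, MBR1, YMR122C and NCW1, did not pass the test (adjusted p = 0.927, 0.069, 0.43 and 0.122, edgeR's quasi-likelihood test).

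MFA1 (YDR461W, chrIV:1385176-1385286, forward strand) and MFA2 (YNL145W, chrXIV:352414-352530, forward strand) both encode precursors of the pheromone a-factor. Their coding sequences are printed to show how alike these copies are, since reads of close copies can be hard to assign. Capitals mark their longest shared run, of 11 bases.
MFA1: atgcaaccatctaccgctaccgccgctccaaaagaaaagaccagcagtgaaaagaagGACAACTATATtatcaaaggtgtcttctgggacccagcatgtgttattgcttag
MFA2: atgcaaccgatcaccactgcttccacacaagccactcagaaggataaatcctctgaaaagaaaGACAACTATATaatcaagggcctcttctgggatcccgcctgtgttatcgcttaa
They were identical at 87 of 120 aligned columns (72.5%). The sources used here do not say how reads with several alignments were counted.

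MFA1 was at 123, 103 and 109 CPM in replicates 1, 2 and 3 of arrested WT cells and at 92.4, 89.3 and 98.7 CPM after DSB induction. In rad30Δ cells it was at 9.78, 6.78 and 12.2 CPM in arrest and at 7.83, 8.14 and 14.2 CPM after induction. Every rad30Δ library was thus far below every WT library, while the 2 rad30Δ groups overlapped. The group means were 112 ± 9.97 and 93.5 ± 4.8 CPM in WT and 9.58 ± 2.7 and 10.1 ± 3.6 CPM in rad30Δ cells (SD, n = 3).

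MFA2 was the more abundant pheromone gene in WT cells. It was at 499, 452 and 495 CPM in arrested WT cells and at 481, 472 and 553 CPM after DSB induction. The rad30Δ libraries held 12.3, 11 and 16.2 CPM in arrest and 9.39, 11.5 and 18.9 CPM after induction. The groups did not overlap between strains and overlapped within each strain. In arrest the ratio of the WT mean to the rad30Δ mean was larger for MFA2 than for MFA1, with log2 differences between strains of −5.20 and −3.56.

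STE2 (YFL026W, chrVI:82580-83875, forward strand) encodes the receptor by which a cells sense α-factor. It was at 556, 554 and 596 CPM in arrested WT cells and at 393, 376 and 402 CPM after DSB induction. In rad30Δ cells it was at 13.4, 17.7 and 17.2 CPM in arrest and at 15.1, 18.3 and 19.9 CPM after induction. All 3 WT libraries after induction were below all 3 before it, whereas the rad30Δ groups overlapped.

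STE6 (YKL209C, chrXI:42423-46295, reverse strand) encodes the ABC transporter that exports a-factor. It was at 288, 285 and 332 CPM in arrested WT cells and at 217, 213 and 206 CPM after DSB induction. The corresponding rad30Δ values were 18.8, 21.5 and 22.3 CPM in arrest and 27.5, 23.5 and 17.1 CPM after induction. As for STE2, the WT groups were separate and the rad30Δ groups overlapped.

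BAR1 (YIL015W, chrIX:322342-324105, forward strand) encodes the secreted protease that degrades α-factor. It was at 211, 160 and 159 CPM in arrested WT cells and at 159, 114 and 122 CPM after DSB induction. In the absence of RAD30 the levels were 16.6, 16.9 and 23.3 CPM in arrest and 19.1, 17.7 and 43 CPM after induction. Replicate 1 was the highest library of both WT groups. The value of 43 CPM came from replicate 3, the library unlike the others.

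AGA2 (YGL032C, chrVII:436570-436833, reverse strand) encodes the binding subunit of a-agglutinin, through which a cells adhere to α cells. It was at 56.8, 50.7 and 55.7 CPM in arrested WT cells and at 55, 53 and 48.5 CPM after DSB induction. Levels in the rad30Δ strain were 7.1, 4.65 and 6.93 CPM in arrest and 7.54, 5.68 and 9.73 CPM after induction. The groups overlapped within each strain and not between strains.

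ASG7 (YJL170C, chrX:101150-101779, reverse strand) encodes a protein that acts on signalling by the G protein subunit Ste4 after mating. It was at 16.1, 21.4 and 15.9 CPM in arrested WT cells and at 15.5, 11.1 and 11.1 CPM after DSB induction. Without RAD30 it was counted at 4.42, 4.52 and 3.85 CPM in arrest and at 2.85, 3.68 and 4.09 CPM after induction, 20 to 34 reads per library. It had the smallest strain difference of the 8 genes in arrest, with a log2 difference of −2.05.

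RDT1 (YCL054W-A, chrIII:30910-30996, forward strand) is annotated as a small gene in the recombination enhancer, and its short coding sequence is shown for that reason, with no capitals.
RDT1: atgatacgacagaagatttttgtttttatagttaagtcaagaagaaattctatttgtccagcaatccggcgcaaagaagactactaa
It had 144, 144 and 133 reads in arrested WT cells and 86, 82 and 91 reads after DSB induction, or 19.8, 21.5 and 20.5 CPM and 14.8, 15.2 and 15.3 CPM. In rad30Δ cells it had 0, 1 and 1 reads in arrest and 1, 2 and 3 reads after induction. In arrest the 2 reads of the rad30Δ libraries were 0.477% of the 421 reads of the WT libraries (95% exact interval 0.0576% to 1.73%), and after induction 6 reads were 2.12% of 259 (0.773% to 4.69%). These intervals cover counting error only and are not scaled to library size.

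**Figure D2:**
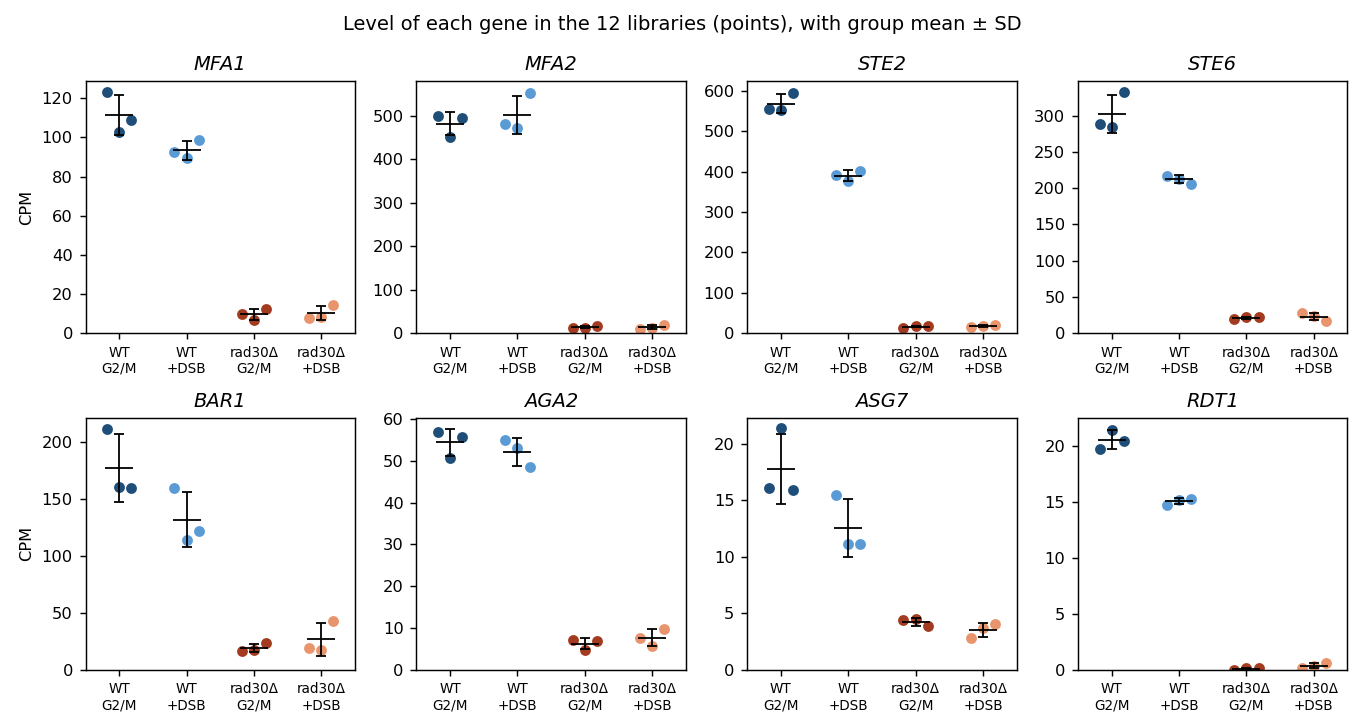
CPM of the 8 genes in the 12 libraries, 1 panel per gene, with the 4 groups on the x axis. Points are libraries and bars are the group mean ± SD (n = 3). In every panel the 6 rad30Δ libraries lie below the 6 WT libraries, and the WT libraries of MFA1, STE2, STE6, ASG7 and RDT1 after DSB induction lie below those before it, without overlap.

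In G2/M arrest, the contrast that chose the genes, all 8 had rad30Δ libraries entirely below the WT libraries, as did 16.6% of all genes tested. The log2 differences ran from −2.05 for ASG7 to −5.20 for MFA2, and the fitted −7.45 of RDT1 depends at these counts on the prior count. In these bulk samples, fewer cells that express a gene and less RNA per cell cannot be told apart.

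After DSB induction, in libraries that the choice did not use, each of the 8 genes was again lower in the rad30Δ strain. Among all genes 11.8% were called lower and 11.6% higher at an adjusted p under 0.05 (edgeR's quasi-likelihood test). The same strains were compared, so this repeats the difference in other samples and not in other strains. The study harvested arrested cells before and after induction, so these samples may also come from the same cultures. The log2 fold change of the a-factor genes was −3.25 (SE 0.19, adjusted p = 2.6e-07) for MFA1 and −5.27 (SE 0.20, adjusted p = 3.95e-09) for MFA2. STE2 was lower by a log2 fold change of −4.47 (SE 0.12, adjusted p = 3.99e-11) and STE6 by −3.21 (SE 0.13, adjusted p = 5.35e-09). BAR1 had −2.35 (SE 0.27, adjusted p = 7.4e-05), AGA2 −2.79 (SE 0.16, adjusted p = 2.6e-07) and ASG7 −1.84 (SE 0.22, adjusted p = 0.000101). The fitted value of RDT1 was −5.47 (adjusted p = 1.19e-07). The median of the 8 genes was −3.23, against 0.0012 over all genes tested.

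The genes did not fall to a common remainder. In arrest, the level left in rad30Δ cells was 2.73% ± 0.555 of the WT mean for MFA2 and 2.83% ± 0.412 for STE2 (SD, n = 3 rad30Δ libraries). It was 6.91% ± 0.616 for STE6, 8.58% ± 2.42 for MFA1, 10.7% ± 2.14 for BAR1 and 11.4% ± 2.52 for AGA2. ASG7 kept the most, 24.0% ± 2.02, and RDT1 the least, 0.464% ± 0.405. After DSB induction these shares were 2.64% ± 0.993 for MFA2, 4.54% ± 0.623 for STE2, 10.7% ± 2.46 for STE6 and 28.1% ± 5.04 for ASG7. The share of STE2 was 2.36% to 3.11% in arrest and 3.86% to 5.09% after induction, without overlap, and that of STE6 was 6.22% to 7.4% and 8.07% to 12.9%. BAR1 (9.38% to 13.2% and 13.4% to 32.7%, the highest in replicate 3) and RDT1 (0% to 0.747% and 0.941% to 3.86%) did not overlap either, and the other 4 genes did. The WT mean, which is the denominator, was smaller after induction for these 4 separate genes. It was also smaller for MFA1, AGA2 and ASG7, whose shares overlapped, and not for MFA2. The arrested shares are of the contrast that chose the genes, and how many of all genes are separate in this way was not computed. In the reported edgeR fit the interaction test, given below with its alternatives, called none of the 8 genes.

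**Figure D3:**
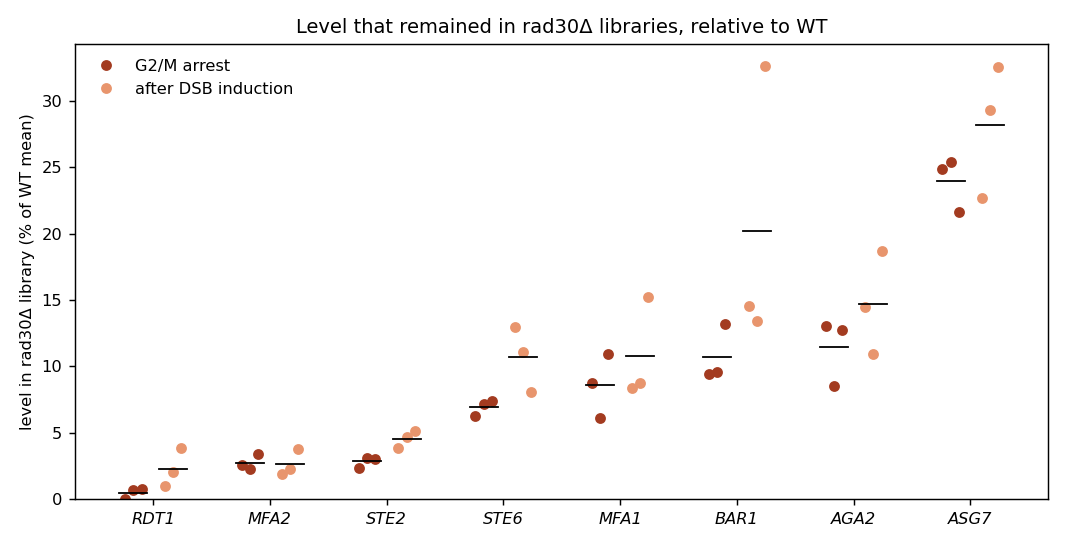
Level of the 8 genes in each rad30Δ library as a percentage of the WT mean of the same condition, in G2/M arrest (dark points) and after DSB induction (light points), with lines at the means. The genes run from RDT1, at 0.464% in arrest, to ASG7, at 24.0%, and the points of STE2, STE6, BAR1 and RDT1 do not overlap between conditions. The arrested points are of the contrast that chose the genes, and the share of all genes without overlap was not computed.

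In WT cells, STE2 and STE6 were lower after DSB induction, and 6 of the 8 genes did not pass the test. STE2 fell to 68.7% of its arrested mean (log2 fold change −0.54, SE 0.09, adjusted p = 0.00303, edgeR's quasi-likelihood test) and STE6 to 70.3% (−0.51, SE 0.11, adjusted p = 0.0119). Of all genes tested, 6.29% were called lower and 6.07% higher. The arrested libraries in the tests of both responses are those whose counts chose the genes, so these tests are not independent of the choice. ASG7 was at 70.8% (adjusted p = 0.0891), RDT1 at 73.3% (0.0821), BAR1 at 74.6% (0.249) and MFA1 at 83.8% (0.268) of their arrested means. MFA2 was at 104% and AGA2 at 95.9%, with 95% intervals of the log2 fold change of −0.25 to 0.36 and −0.32 to 0.20. MFA1, STE2, STE6, ASG7 and RDT1 had all libraries after induction below all before it, as had 22.9% of all genes. The calls depended on single libraries and on the fit. So did the number over all genes, which was 408 lower as reported and 131 to 1089 over the alternatives. With a replicate block within strain, 4 of the 8 genes were called, as BAR1 (adjusted p = 0.0249) and RDT1 (adjusted p = 0.0435) were added to STE2 and STE6. STE6 had an adjusted p of 0.0592 without replicate 3 of arrested WT cells and of 0.0611 without replicate 3 of WT cells after induction. RDT1 passed without replicate 1 or replicate 3 of rad30Δ cells after induction (adjusted p = 0.0416 and 0.0322), and BAR1 without that replicate 3 (adjusted p = 0.0418), through the spread that all groups share.

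In rad30Δ cells, 0 of the 8 genes were called after DSB induction, and 0 had an unadjusted p under 0.05 or were called by DESeq2. Of all genes, 3.68% were called higher and 2.65% lower by edgeR's quasi-likelihood test, 22% had an unadjusted p under 0.05, and DESeq2 called 590. The log2 fold changes were 0.05 for MFA1, −0.01 for MFA2, 0.13 for STE2, 0.13 for STE6, 0.46 for BAR1, 0.29 for AGA2 and −0.28 for ASG7. The approximate 95% intervals were −0.11 to 0.37 for STE2 and −0.15 to 0.41 for STE6, which leave out the value fitted in WT cells. That of ASG7, −0.77 to 0.20, does not. The WT values have errors of their own, and the interaction test of the reported fit called neither STE2 nor STE6. Without replicate 3, the value of BAR1 was −0.04.

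The difference between the strains' responses, tested as an interaction, was called for 0 of the 8 genes by edgeR's quasi-likelihood test, as 0% of all genes were called higher and 0.0616% lower. This test too uses the arrested libraries that chose the genes. At an unadjusted p under 0.05, where 13.4% of all genes stood, there were 4 of the 8 genes, STE2 (log2 difference of responses 0.67, adjusted p = 0.147), STE6 (0.64, 0.189), BAR1 (0.88, 0.35) and RDT1 (1.98, 0.369, on 2 and 6 rad30Δ reads). DESeq2 called 67 genes in all, of the 8 only STE2 (adjusted p = 0.00591), which also passed with the replicate block (adjusted p = 0.0438). Without replicate 3 of rad30Δ cells after induction the value of BAR1 was 0.39. STE6 passed in edgeR's test without that library (0.80, adjusted p = 0.0167).

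**Figure D4:**
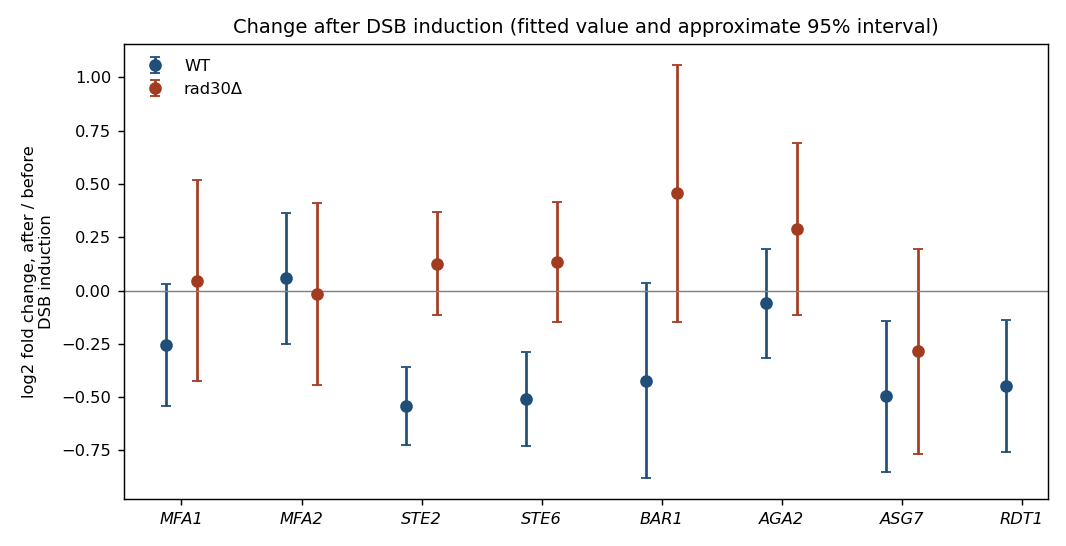
Fitted log2 fold change after DSB induction against G2/M arrest, with approximate 95% intervals, in WT (blue) and rad30Δ (red) cells. STE2 and STE6 lie at −0.54 and −0.51 in WT and at 0.13 in rad30Δ cells, and RDT1 is drawn for WT cells only because it had 2 and 6 reads in the rad30Δ groups.

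Per length of coding sequence, the pheromone genes were the most abundant in every group. In arrested WT cells the mean level in CPM per kb was 4120 for MFA2, 1010 for MFA1, 439 for STE2, 237 for RDT1, 206 for AGA2, 100 for BAR1, 78 for STE6 and 28.2 for ASG7, and no neighbours in this order overlapped. Levels per length of the shortest genes are imprecise, since untranslated parts of the transcript are not in these lengths. In arrested rad30Δ cells the order was MFA2 (113), MFA1 (86.3), AGA2 (23.6), STE2 (12.4), BAR1 (10.7), ASG7 (6.76), STE6 (5.39) and RDT1 (1.1), in which MFA2 overlapped MFA1 and STE2 overlapped BAR1. Thus AGA2 stood above STE2 in rad30Δ cells and below it in WT cells. Among the 7 a-specific genes the coefficient of variation between replicates was 4.13% to 17.5% and 2.73% to 20.2% in the WT groups, and 8.45% to 28.2% and 13.7% to 53.8% in the rad30Δ groups, where fewer reads were counted.

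The α-specific genes moved in the opposite direction between the strains. The 5 genes were STE3 (the a-factor receptor), MF(ALPHA)1 and MF(ALPHA)2 (α-factor precursors), SAG1 (α-agglutinin) and AFB1 (the a-factor barrier). All 5 were called higher in rad30Δ cells after DSB induction, against 11.6% of all genes. The log2 fold changes ran from 1.21 for SAG1 (adjusted p = 1.42e-05, edgeR's quasi-likelihood test) to 5.05 for MF(ALPHA)1 (adjusted p = 3.23e-11). AFB1 was put in this list by earlier results of these data, so its direction is not a separate result. The summed level of the 7 a-specific genes was 7.42 to 8.33 times that of these 5 genes in the arrested WT libraries and 6.91 to 7.99 times after induction. In rad30Δ libraries the ratio was 0.0129 to 0.0159 in arrest and 0.0325 to 0.0355 after induction. The higher ratio after induction went with a lower sum of the α-specific genes, which was 5890 to 6410 CPM in arrest and 2650 to 3580 CPM after it, while the a-specific sum was 82.4 to 102 and 88.4 to 127 CPM. In WT cells 3 of the 5 were called lower after induction and in rad30Δ cells all 5, against 6.29% and 2.65% of all genes.

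Genes of a-factor maturation had small strain differences after DSB induction, with log2 fold changes from −0.37 to 0.17. The list of a-factor maturation holds 7 genes, which attach the farnesyl group, trim and methylate the precursor. Of these, 2 were lower and 0 higher in rad30Δ cells after DSB induction, against 11.8% and 11.6% of all genes. The 2 were STE24, a protease (log2 fold change −0.37, adjusted p = 0.00489, edgeR's quasi-likelihood test), and STE14, the methyltransferase (−0.24, adjusted p = 0.0498). The median of the list was −0.08. In the responses to induction edgeR called 0 of the 7 in either strain, and 1 (STE24, in WT cells) had an unadjusted p under 0.05. Most regulators showed no call. For HMLALPHA1, HMLALPHA2, MATALPHA1 and MATALPHA2, which include the genes of α2, this does not mean no change. Their group means were at most 0.802 CPM, and MATALPHA1 had too few reads to be tested. In arrest, the means in WT and rad30Δ cells were 0 and 0.802 CPM for HMLALPHA1 and 0.0513 and 0.398 CPM for HMLALPHA2. They were 0 and 0.191 CPM for MATALPHA1 and 0.0459 and 0.141 CPM for MATALPHA2. That contrast was not tested. How reads with several alignments were counted is not stated, which may affect these counts. The log2 fold changes between strains after induction were 1.90 (SE 1.61) for HMLALPHA1, 2.84 (SE 1.16) for HMLALPHA2 and 1.87 (SE 1.08) for MATALPHA2. Of 12 tested regulators, STE12, the activator of pheromone-responsive genes, was higher in rad30Δ cells after induction (0.46, adjusted p = 0.0032), and HMRA1, whose sequence is shared with the a1 gene at MATa, was lower (−6.57, adjusted p = 3.23e-11). MCM1 differed by −0.06 and TUP1 by −0.02 (95% intervals −0.24 to 0.13 and −0.17 to 0.12). In WT cells STE12 and HMRA1 were lower after induction (−0.30 and −0.66, adjusted p = 0.0461 and 0.000213).

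Of 17 genes of pheromone signalling, used by cells of both mating types, 8 were higher and 1 lower in rad30Δ cells after DSB induction. This stands against 11.6% and 11.8% of all genes. The median log2 fold change of the 17 was 0.20. Among them were SST2, which dampens the G protein signal (0.74, adjusted p = 0.000104), FAR1, an inhibitor of the cell cycle kinase (0.64, adjusted p = 2.9e-05), GPA1, the Gα subunit (0.42, adjusted p = 0.000975), and AGA1, the cell wall anchor of AGA2 (0.62, adjusted p = 0.0019). The MAP kinase kinase kinase gene STE11 was lower (−0.41, adjusted p = 0.002). In WT cells 2 of the 17 were higher and 4 lower after induction, against 6.07% and 6.29% of all genes. FAR1 rose by 1.47 (adjusted p = 1.09e-08), and STE4, the Gβ subunit, and KSS1, a MAP kinase, fell by 0.40 and 0.46 on the log2 scale (adjusted p = 0.0013 and 0.00992). SST2 fell by 0.31 (adjusted p = 0.043). In rad30Δ cells 1 rose, FAR1 (1.84, adjusted p = 7.7e-10, edgeR's quasi-likelihood test), and 2 fell, STE4 (−0.24, adjusted p = 0.0352) and DIG1, an inhibitor of Ste12 (−0.44, adjusted p = 0.0023). Of all genes, 3.68% were called higher and 2.65% lower in that response.

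The genes next to the 8 had smaller strain differences. None of the 16 neighbours overlapped a gene of the set, at distances of 168 to 1973 bases. After DSB induction 7 of the 16 neighbours were lower and 2 higher in rad30Δ cells, against 11.8% and 11.6% of all genes. The log2 fold changes of the neighbours ran from −1.04 to 0.41, with a median of −0.26. CMI8, beside MFA1, had −1.04 (adjusted p = 1.54e-05), YIL014C-A, beside BAR1, −1.03 (2.45e-05), and GYP8, beside STE2, −0.70 (0.000133). KAR4, the gene before RDT1, needed for mating, had −0.60 (0.0021). TFB3, UBA1 and SNL1 were lower by log2 fold changes of −0.33, −0.39 and −0.44 (0.00489, 0.0215 and 0.000853), and BST1 and CBT1 higher by 0.30 and 0.41 (0.0155 and 0.0109). In the responses to DSB induction CMI8 was higher in WT cells (0.57, adjusted p = 0.00214) and MPF1, beside MFA2, lower in rad30Δ cells (−0.52, adjusted p = 0.0465).

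The genes most like the mean profile of the 7 a-specific genes over the 12 libraries, by Pearson's r of log2 CPM among 5647 genes, were HMRA1 (0.995), RAD30 (0.994), PRE10 (0.988), MXR1 (0.981) and RPT5 (0.973). RDT1 had an r of 0.995, but it was chosen with the 7 genes by the same strain contrast in the arrested libraries. A high r was thus built in by the choice. The points share the split into 2 strains, and 131 genes had an r over 0.9. HMRA1 was at 83.7 ± 0.838 CPM in arrested WT and 0.896 ± 0.211 CPM in arrested rad30Δ cells (SD, n = 3). PRE10, a subunit of the proteasome core, differed less, at 554 ± 5.9 and 339 ± 4.74 CPM. By Spearman's rho, 1 of these 5 genes was again among the first 5.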

How the data were processed

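RNA-seq counts of 12 samples were used, 3 in each of 4 groups taken from the labels. Per the labels and the study's methods, the authors enriched polyadenylated RNA, sequenced it paired-end, checked and trimmed reads with FastQC and cutadapt, aligned them to sacCer3 with HISAT2, sorted them with SAMtools, removed duplicate reads in Picard and obtained counts per gene from featureCounts. Such removal can lower the counts of short, abundant genes such as MFA2. The sources used here give neither versions nor strandedness. The deposited counts are whole numbers for 7123 genes. The deposited tables of the authors' comparisons hold fold changes and p-values and were not used.

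Genes whose reads summed to 10 or more (6490 genes) were scaled by TMM and fitted in edgeR 4.0.16 (R 4.3.3) over all libraries. The strain difference after DSB induction, both responses and their interaction were tested by the quasi-likelihood test, with Benjamini-Hochberg adjustment over all genes and a threshold of 0.05. Intervals are the fitted value ± 1.96 SE. Total reads of 5442935 to 7289514 per library set the precision. Positions and sequences come from the RefSeq annotation of R64 (sacCer3), where 6044 genes were found by their identifiers. Motifs were searched on both strands. Tests were checked on simulated data. The members and lists were chosen with earlier results of these data known. All 8 members, up to 4 genes of a list and comparison with the smallest p that passed, neighbours that passed and the 5 most alike genes were named, with HMRA1 also under the lists. Some values that did not pass are given for MCM1 and TUP1, the known partners of the operator, and for the HMLALPHA and MATALPHA genes. All of these were chosen after their values were seen. Alternatives were RLE scaling, scaling without chromosome III and induced genes, DESeq2 1.42.0, filterByExpr, no filter, only the groups compared, a replicate block and leaving out each library.

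Residuals of libraries of equal replicate number correlated at 0.04, 0.10 and 0.00 for the WT pairs and at 0.19, 0.15 and 0.34 for the rad30Δ pairs. Over genes with at least 10 CPM they were 0.16, 0.23 and 0.11, and 0.33, 0.27 and 0.42. Whether the numbers pair the WT libraries at a limit of 0.1 thus depends on the genes taken. The unblocked fit is reported, and values with a replicate block are given where they change a call.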

Additional observations from a re-analysis of the deposited data

Results flagged for a closer look

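The response to DSB induction differed between the strains for 3 of the 5 α-specific genes, tested as an interaction in edgeR with adjustment over all genes. Of all genes, 0.0616% were called lower and 0% higher. The list was chosen with earlier results of these data known, and the test uses the arrested libraries, so it is not independent of that choice. The log2 difference of the responses, rad30Δ minus WT, was −2.24 for MF(ALPHA)2 (adjusted p = 8.23e-06), −1.84 for STE3 (adjusted p = 0.00482) and −1.59 for SAG1 (adjusted p = 0.000287).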

How the results depend on the processing

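The strain difference of all 8 genes after DSB induction kept its direction and its call under each of 19 alternatives, and no called value of the 8 genes was reversed. Over all genes, 408 were called lower after induction in WT cells as reported. That number was 131 to 730 without a single library and 399 to 1089 under the other alternatives. Of the 8 genes, 2 were called lower as reported. It was 6 of the 8 with only the groups compared in the fit, 4 with a replicate block within strain and 1 to 4 without a single library. The genes added were MFA1, BAR1, ASG7 and RDT1 with only the groups compared (adjusted p = 0.0146, 0.0172, 0.0391 and 0.00936), and BAR1 and RDT1 with the block (0.0249 and 0.0435). The number called higher in the interaction, 0 as reported, was 1 with DESeq2, 1 with the replicate block (STE2, adjusted p = 0.0438) and 0 to 1 without a single library. The cause was not tested. The block changed no other call of the 8 genes. Counts over all genes moved by over 1.5 times. They were 756 higher and 769 lower for the strain difference after induction (409 to 968 and 421 to 1037 over all alternatives), 394 and 408 for the WT response (200 to 1004 and 131 to 1089), 239 and 172 for the rad30Δ response (77 to 380 and 32 to 322) and 0 and 4 for the interaction (0 to 76 and 4 to 65). Scaling without chromosome III and induced genes was chosen after seeing the data. Depth limits RDT1 in rad30Δ cells, with 0 to 3 reads per library.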
